A study of Mus musculus with 8 samples.

Results

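The genes Gpr17, Bcas1, Enpp6, Fyn, Itpr2, Sirt2, Tns3, Mpzl1, Bmp4 and Rras2 were followed in cultured mouse oligodendrocyte progenitors as markers of the premyelinating oligodendrocyte, the committed cell that has left the progenitor state and has not yet made myelin. The 10 genes were taken as a list of names by a rule without measured values, though earlier results of these data were known. Each symbol matched 1 of the 56980 gene IDs in the deposited counts. All 10 passed the filter on low counts, which kept 18905 genes. RNA was sequenced from 4 low glucose (LG) and 4 high glucose (HG) libraries, a comparison that asks what a lower glucose supply does to the transcriptome of these cells. LG cultures were brought down by part changes of medium from day 1, through 12.5 and 5 mM glucose, to 2.5 mM from day 3, while HG cultures stayed at 25 mM, and both were collected on day 5. All cultures were wild-type C57BL/6 cells taken from the cortex of pups of either sex at postnatal day 6 to 8, captured on dishes that bind PDGFRα (CD140a), the PDGF receptor of progenitors, and kept in 10 ng/mL PDGF-AA, a growth factor for that receptor. A second growth factor, bFGF, used at 20 ng/mL during expansion, was washed out of all of them beforehand. The labels call the preparations independent, but libraries 1 and 2 of each group share a code in their descriptions. What that code stands for is not stated there. It is called the preparation code here, and libraries that share it are spoken of as 1 preparation. So n = 4 counts libraries, and p-values may in part measure technical spread.

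Oligodendrocyte progenitors divide in response to PDGF and, once they stop, pass through a short premyelinating stage before they wrap axons. Cells at that stage switch on the receptor Gpr17 and the protein Bcas1, lose PDGFRα, and either go on to express myelin genes or die. Gpr17 is known to hold cells back from full maturation and is shut off again in myelinating cells, while Fyn kinase carries signals from axon contact to the cytoskeleton and to local translation of myelin RNA.

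Promoter windows of 250 bases before the RefSeq gene start were read for 8 of the 10 genes from RefSeq promoter sequences (GRCm38.p6). The windows below belong to Itpr2 and Mpzl1, whose counts ran in the same library order, to Sirt2, whose groups did not overlap, and to Enpp6, which ran against Itpr2 and Mpzl1 across preparations. They are printed 5′ to 3′ on the gene's strand. Capitals mark the GC box (GGGCGG) and the CCAAT box (CCAAT), each on either strand, and no marked boxes overlapped. The coordinates are chr6:146502224-146502473 (minus strand) for Itpr2, chr1:165634542-165634791 (minus) for Mpzl1, chr7:28766502-28766751 (plus) for Sirt2 and chr8:46986637-46986886 (plus) for Enpp6.
Itpr2: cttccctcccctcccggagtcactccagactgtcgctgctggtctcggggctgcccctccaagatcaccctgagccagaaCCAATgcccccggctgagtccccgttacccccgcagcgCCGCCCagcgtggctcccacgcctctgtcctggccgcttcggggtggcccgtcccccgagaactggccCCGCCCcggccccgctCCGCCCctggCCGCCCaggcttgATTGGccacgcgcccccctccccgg
Mpzl1: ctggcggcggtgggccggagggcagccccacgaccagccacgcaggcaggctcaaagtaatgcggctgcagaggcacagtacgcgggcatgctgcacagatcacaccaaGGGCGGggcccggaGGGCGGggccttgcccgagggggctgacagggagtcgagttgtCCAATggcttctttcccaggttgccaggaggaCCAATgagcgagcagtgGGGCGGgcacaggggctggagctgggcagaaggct
Sirt2: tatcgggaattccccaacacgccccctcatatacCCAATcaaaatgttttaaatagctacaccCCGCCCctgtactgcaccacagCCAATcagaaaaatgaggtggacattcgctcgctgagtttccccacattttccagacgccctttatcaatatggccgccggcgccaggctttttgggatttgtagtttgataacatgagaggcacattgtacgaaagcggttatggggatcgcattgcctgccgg
Enpp6: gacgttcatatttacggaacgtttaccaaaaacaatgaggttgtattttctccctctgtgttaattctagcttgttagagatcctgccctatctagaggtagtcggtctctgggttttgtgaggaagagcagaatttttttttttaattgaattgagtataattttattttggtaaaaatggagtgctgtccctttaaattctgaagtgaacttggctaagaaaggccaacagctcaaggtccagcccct

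The Itpr2 window held 4 GC boxes and 2 CCAAT boxes, the Mpzl1 window 3 and 2, and the Sirt2 window 1 and 2. The Enpp6 window held neither. A GC box was present in 7 of the 8 windows, all but that of Enpp6, against 32.7% of 32851 windows of the same length, and a CCAAT box in 4 of 8 (Fyn, Itpr2, Sirt2 and Mpzl1) against 33.8%. The E-box (CANNTG), a motif read by factors such as Olig2, was present in 3 of 8 against 66.2%, the Sox core (ACAAT) in 3 of 8 against 27.7% and the Tcf core (CTTTGA) in 2 of 8 against 13.8%, all on both strands. G and C made up 74.4% of the Itpr2 window, 69.6% for Tns3, 68.4% for Mpzl1, 67.2% for Fyn, 63.2% for Bmp4 and 59.6% for Rras2. The Sirt2 window had 50% and the Enpp6 window 38.4%, with a median of 52.4% over all windows. The windows compared were not matched for GC content, so these shares cannot be told apart from base composition. These are matches of letters in short windows, and binding was not measured.

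Total counts ran from 53869166 to 65733928 in LG and from 50864130 to 61915909 in HG. The progenitor label held in both groups: Pdgfra, the receptor used for capture, stood at 1713 ± 303 CPM (counts relative to the TMM-scaled library size) in LG and 1827 ± 360 CPM in HG (SD, n = 4 each). Mog, a gene of mature oligodendrocytes, stood at 0.384 ± 0.269 CPM in LG and 0.298 ± 0.143 CPM in HG. Markers of other cells were low apart from those of neurons and astrocytes. The 12 astrocyte markers, none of them at 0, summed to 755 to 2048 CPM in LG and 851 to 1895 CPM in HG, with 1848 CPM or more in all libraries numbered 1 and 2 and 911 CPM or less in all those numbered 3 and 4. Slc1a3 and Sox9 led that list at 428 and 275 CPM in LG and 443 and 285 CPM in HG. The 12 microglia markers, 4 of them at 0 everywhere, summed to 14.4 to 17.1 CPM in LG and 13.2 to 15.7 CPM in HG. The 12 endothelial markers (led by Vwf and Kdr, 2 at 0) summed to at most 7.66 CPM and the 11 fibroblast markers (led by Fbln1 and Lama1, 1 at 0) to at most 50.1 CPM. The 11 mural markers (led by Notch3 and Pdgfrb, 1 at 0) summed to at most 52.1 CPM, again in numbers 1 and 2. The 12 neuron markers summed to 1035 to 1154 CPM in LG and 1100 to 1359 CPM in HG. Map2 made up most of that sum, at 848 CPM in LG and 901 CPM in HG. Gap43 stood at 185 CPM in LG and 212 CPM in HG. Which cells these transcripts came from was not tested.

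The premyelinating markers were not rare transcripts in these progenitor cultures. Set against gene length, Gpr17 was the highest of the 10 at 262 CPM per kb of exon (mean of 8 libraries, range 131 to 467). The mean of Pdgfra was 177 CPM per kb. In HG 1 Gpr17 was below Pdgfra, at 131 against 150 CPM per kb. Without the division by length Pdgfra was higher on average, at 1770 CPM against 1362 CPM. Exon length is the union over transcripts, and the order by another length was not computed. Among the markers, Fyn and Bcas1 followed Gpr17 at 157 and 155 CPM per kb. Then came Sirt2 at 56.0, Mpzl1 at 36.7, Tns3 at 25.8 and Itpr2 at 7.06 CPM per kb. Rras2 (3.26 CPM per kb), Enpp6 (2.53) and Bmp4 (0.824) were low. Each of Bcas1, Sirt2, Mpzl1, Tns3 and Itpr2 was above the next gene in 8 of 8 libraries. The order of Gpr17 over Fyn held in 7 of 8, that of Fyn over Bcas1 in 5 of 8, that of Rras2 over Enpp6 in 4 of 8 and that of Enpp6 over Bmp4 in 7 of 8, so Fyn and Bcas1, and Rras2 and Enpp6, were not separated by more than their spread. In bulk RNA, fewer cells of a type and less RNA per cell cannot be told apart.

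**Figure D1:**
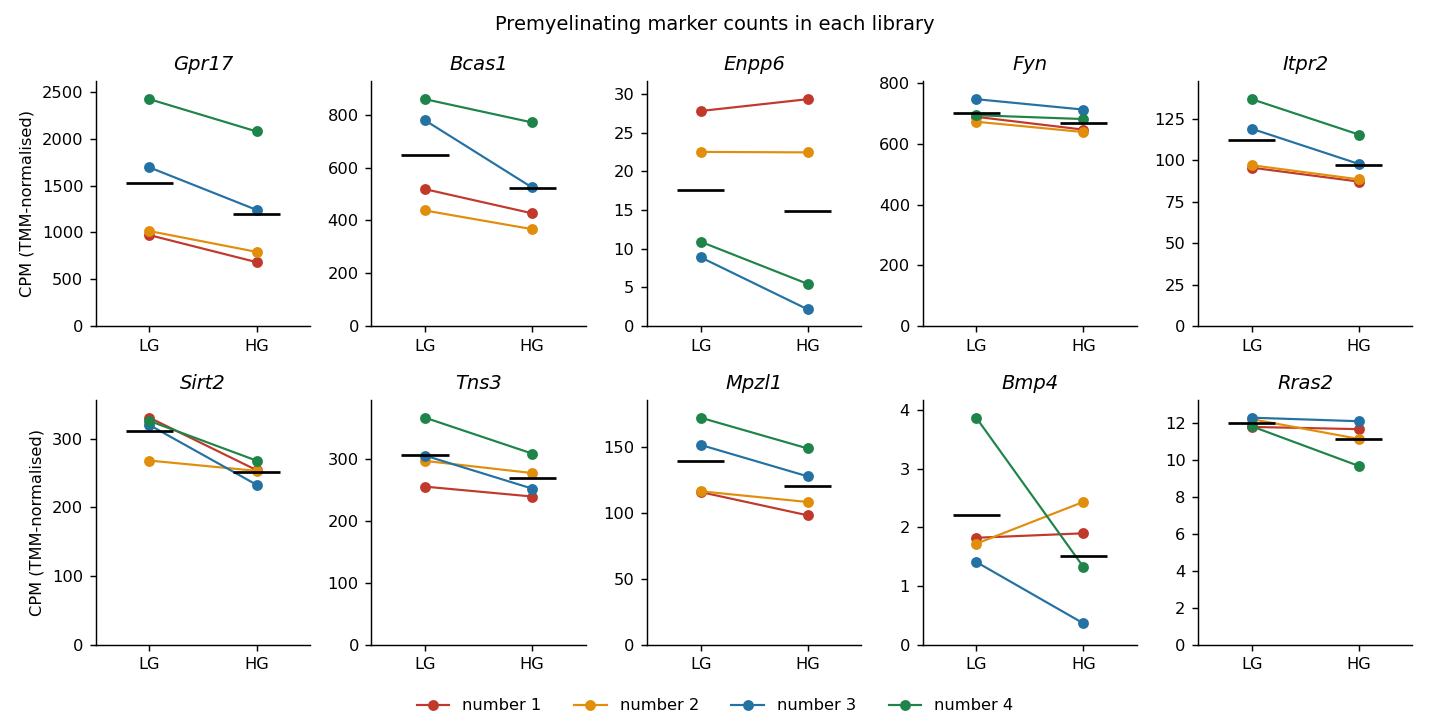
TMM-scaled CPM of each marker in the 8 libraries, LG left and HG right, with a line joining libraries of the same number and a black bar at the group mean. Most lines slope down from LG to HG, while Enpp6 is high in numbers 1 and 2 and Bmp4 is below 4 CPM throughout.

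All 10 markers had a higher fitted level in LG than in HG, by small amounts and with none past the threshold when the library numbers were ignored. The median log2 fold change of the 10 was 0.22, against 0.0051 over all tested genes, of which 51.4% were above 0. Without a block, edgeR called no marker (quasi-likelihood test, Benjamini-Hochberg adjusted p = 0.99985 for each), and it called 0% of all genes. Sirt2 alone of the 10 had an unadjusted p under 0.05 there, a limit reached by 3.94% of all genes. DESeq2 in the same design called 0.0212% of all genes and limma-voom 0, with no marker in either.

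Comparison within numbered pairs gave smaller errors. The same numbers deviated together across genes in both groups, and the fit with the number as a block called 0.418% of all genes (0.111% higher and 0.307% lower in LG), again without any of the 10. Its median log2 fold change over the markers was 0.25, against 0.0015 over all genes, of which 50.4% were above 0. An unadjusted p under 0.05 was reached by 6 of the 10, all higher in LG, against 13.4% of all genes in either direction and 6.02% with LG higher. In 8 of the 10, all but Enpp6 and Bmp4, the LG library was the higher one of every pair, a pattern that 10.8% of all genes had. When the trends of counts with GC content and transcript length were also removed from each library, Gpr17 and Itpr2 passed, in a fit that called 0.799% of all genes, 0.27% as higher and 0.529% as lower in LG, and in which 55.8% of all genes were above 0. DESeq2 with the block called 2.51% of all genes and 4 markers, Gpr17, Bcas1, Sirt2 and Mpzl1.

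**Figure D2:**
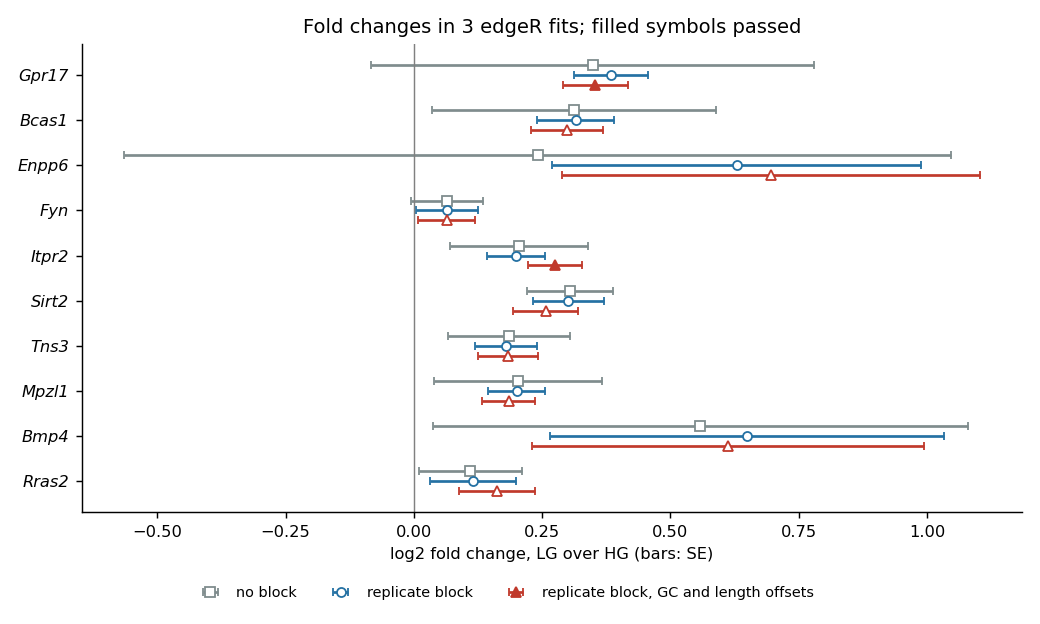
Log2 fold change of LG over HG with its SE in the edgeR fits without a block (squares), with the replicate block (circles) and with the block plus GC and length offsets (triangles), for the 10 markers from top to bottom. All points lie above 0, the bars of Gpr17 and Bcas1 shrink with the block, and the filled symbols, Gpr17 and Itpr2 with offsets, passed the threshold.

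Gpr17, a G protein-coupled receptor of the cell membrane, was the most abundant of the 10. Its level was 971, 1014, 1695 and 2424 CPM in LG 1 to 4, against 682, 792, 1241 and 2079 CPM in HG 1 to 4. Every LG library was above the HG library of its own number, yet the groups overlapped widely, because both libraries numbered 4 and both numbered 3 stood above those numbered 1 and 2. The difference within pairs averaged 0.38 ± 0.13 on the log2 CPM scale (SD, n = 4 pairs), from 0.22 in pair 4 to 0.51 in pair 1. Without a block the log2 fold change was 0.35 with an SE of 0.43, and single libraries moved it from 0.03 without LG 4 to 0.75 without HG 4. With the block it was 0.38 with an SE of 0.072 and a Benjamini-Hochberg adjusted p of 0.0523 in edgeR, on the other side of the threshold from the adjusted p of 0.0306 with GC and length offsets (log2 fold change 0.35). With pairs left out, the blocked adjusted p in edgeR was 0.161 (pair 1 out), 0.289 (pair 2 out), 0.158 (pair 3 out) or 0.0308 (pair 4 out). In the last of these fits 0.787% of all genes were called. With the preparation code as block in place of the number, the adjusted p in edgeR was 0.163. With counts summed per preparation and blocked by it, the edgeR value was 0.143.

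Mpzl1, a membrane glycoprotein related to myelin protein zero, ran closely with Gpr17 across libraries. It stood at 116, 117, 152 and 173 CPM in LG and 98.3, 108, 128 and 149 CPM in HG. Number 4 was again highest and numbers 1 and 2 lowest in each group, and LG was above HG in every pair. The blocked log2 fold change was 0.20 with an SE of 0.055 (edgeR adjusted p = 0.154).

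Bmp4, the secreted ligand of the group and a signal that holds back oligodendrocyte differentiation, had the fewest counts of the 10. It had 96, 110, 75 and 262 counts in LG, or 1.82, 1.72, 1.41 and 3.87 CPM, against 103, 127, 22 and 78 counts in HG, or 1.90, 2.43, 0.361 and 1.32 CPM. LG was lower in pairs 1 and 2 and higher in pairs 3 and 4, and the single low value of HG 3 has a 95% exact Poisson interval of 13.8 to 33.3 counts, which covers counting error only. The blocked log2 fold change of 0.65 had an SE of 0.38 (edgeR adjusted p = 0.500).

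Bcas1, a protein of the cell's processes and of early myelin, followed Gpr17 in size of difference. Its level was 518, 437, 779 and 859 CPM in LG and 427, 367, 524 and 771 CPM in HG. LG was higher in all pairs, most in pair 3 and least in pair 4, and the groups overlapped. The pair differences averaged 0.32 ± 0.18 log2 units, and the blocked log2 fold change was 0.32 with an SE of 0.075 (edgeR adjusted p = 0.109). With pairs left out, this adjusted p in edgeR was 0.263 (pair 1 out), 0.355 (pair 2 out), 0.332 (pair 3 out) or 0.0487 (pair 4 out). Bcas1 (chr2:170346991-170427845, minus strand, GRCm38) shares 11.7% of its exon bases with the antisense gene Bcas1os1, which stood at 1.73 CPM on average in LG and 1.68 CPM in HG. The strand setting of the counting is not given in the sources used here, so reads of such partners cannot be told apart.

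**Figure D3:**
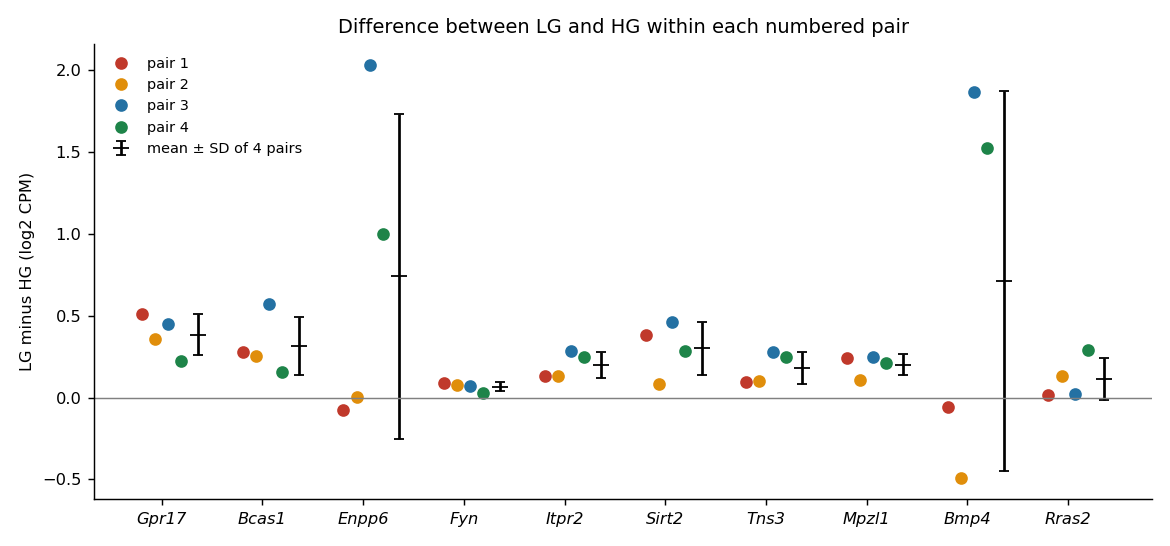
LG minus HG difference in log2 CPM for each of the 4 numbered pairs, with the mean and SD over pairs in black, for the 10 markers. Gpr17, Bcas1, Sirt2 and Mpzl1 lie above 0 in every pair, and Enpp6 and Bmp4 lie near or under 0 in pairs 1 and 2 and between 1.00 and 2.03 in pairs 3 and 4.

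Sirt2, the tubulin and protein deacetylase of oligodendrocyte cytoplasm and myelin, was the one marker whose groups did not overlap. It stood at 331, 268, 320 and 326 CPM in LG and 254, 253, 233 and 268 CPM in HG. The gap was narrow, since LG 2 at 268.3 CPM lay just above HG 4 at 268.2 CPM, and groups did not overlap for 2.89% of all genes, with LG higher for 1.07%. Sirt2 averaged 311 ± 29.0 CPM in LG and 252 ± 14.5 CPM in HG, a log2 fold change of 0.30 with an SE of 0.084 without a block. With the block the SE was 0.069 and the edgeR adjusted p 0.0943. Groups accounted for 69.1% of the variance of its log2 level and preparations for 6.77%. In Gpr17 groups accounted for 9.64% and preparations for 89.0%, and the other 8 markers also had more of their variance between preparations than between groups.

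Enpp6, an ectoenzyme that releases choline and marks the newest oligodendrocytes, was high in the libraries numbered 1 and 2 and low in those numbered 3 and 4. It was 27.8, 22.5, 8.90 and 10.9 CPM in LG and 29.4, 22.5, 2.15 and 5.45 CPM in HG. Pairs 1 and 2 had high and nearly equal levels, and in pairs 3 and 4 both libraries were low and LG exceeded HG by 2.03 and 1.00 log2 units. Its blocked log2 fold change was 0.63 with an SE of 0.36 (edgeR adjusted p = 0.514). The unblocked value of 0.24 was below 0 without LG 1, without HG 3 or without HG 4. A test of whether the glucose difference varied with the preparation code gave an unadjusted edgeR p of 0.000564 for Enpp6 and 0.00224 for Bmp4, a test in which 1.22% of all genes had an unadjusted p under 0.05. After adjustment both were at 1, and 0% of all genes passed.

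Itpr2, the receptor that releases calcium from internal stores, stood at 95.4, 96.9, 119 and 137 CPM in LG and 87.0, 88.3, 97.6 and 115 CPM in HG. LG was higher in all pairs and the groups overlapped, with HG 3 and HG 4 above LG 1 and LG 2. Its blocked log2 fold change was 0.20 with an SE of 0.057 (edgeR adjusted p = 0.170), and with GC and length offsets it was 0.28 with an SE of 0.053 (edgeR adjusted p = 0.0374), so its call rests on the offsets.

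Fyn, the Src-family kinase, lay between 673 and 747 CPM in LG and between 639 and 713 CPM in HG, with a blocked log2 fold change of 0.065 and an SE of 0.060. Its highest library was only 1.17 times its lowest, and the preparation test did not pass (adjusted p = 0.448, edgeR F test). Tns3, which links integrins to actin, ranged from 256 to 367 CPM in LG and from 240 to 309 CPM in HG (blocked log2 fold change 0.18, SE 0.060, edgeR adjusted p = 0.233). Rras2, a small GTPase of the Ras family, averaged 12.03 ± 0.259 CPM in LG and 11.1 ± 1.06 CPM in HG, with the gap set mostly by HG 4 at 9.67 CPM.

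The preparation code, with glucose in the same model, separated 5 of the 10 markers. These were Gpr17, Mpzl1, Bcas1, Itpr2 and Enpp6, with adjusted p-values of 9.52e-06, 0.00102, 0.000684, 0.00434 and 0.0192 (edgeR quasi-likelihood F test), and 13.7% of all genes were called. Gpr17 averaged 2251 CPM in number 4, 1468 CPM in number 3 and 865 CPM in numbers 1 and 2, log2 differences from the last of 1.39 and 0.76. Bcas1 averaged 815, 651 and 437 CPM in the same order. Enpp6 ran the other way, with 8.18 CPM in number 4, 5.52 CPM in number 3 and 25.5 CPM in numbers 1 and 2, log2 differences of -1.75 and -2.40.

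Mpzl1 and Itpr2 had the same order of libraries from high to low, LG 4, LG 3, HG 4, HG 3, LG 2, LG 1, HG 2 and HG 1. Gpr17 differed from it only in that HG 4 stood above LG 3. Enpp6 started with HG 1, LG 1, LG 2 and HG 2 and ended with HG 3. Over the 8 libraries 32 of the 45 pairs of markers had a positive correlation of log2 CPM, with a median r of 0.44, a description over libraries that share preparation and group. Of 18 tested mature myelin genes 11 differed between preparations (edgeR F test), and they did not run one way. Lower in numbers 3 and 4 than in numbers 1 and 2, like Enpp6, were 5 (among them Mbp, Mag and Mobp), and higher, like Gpr17, were 6 (Cnp, Cldn11, Fa2h, Gjb1, Tspan2 and Ugt8a). Mbp, the myelin basic protein gene, averaged 35.0 CPM in number 4, 28.5 CPM in number 3 and 94.2 CPM in numbers 1 and 2, and Cnp, a myelin enzyme gene, 648, 578 and 339 CPM in the same order. All 12 astrocyte markers differed between preparations as well, 10 of them lower in numbers 3 and 4 than in numbers 1 and 2, S100b higher in both, and Sox9 lower only in number 4. The part of other cells in the preparation differences was not tested.

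**Figure D4:**
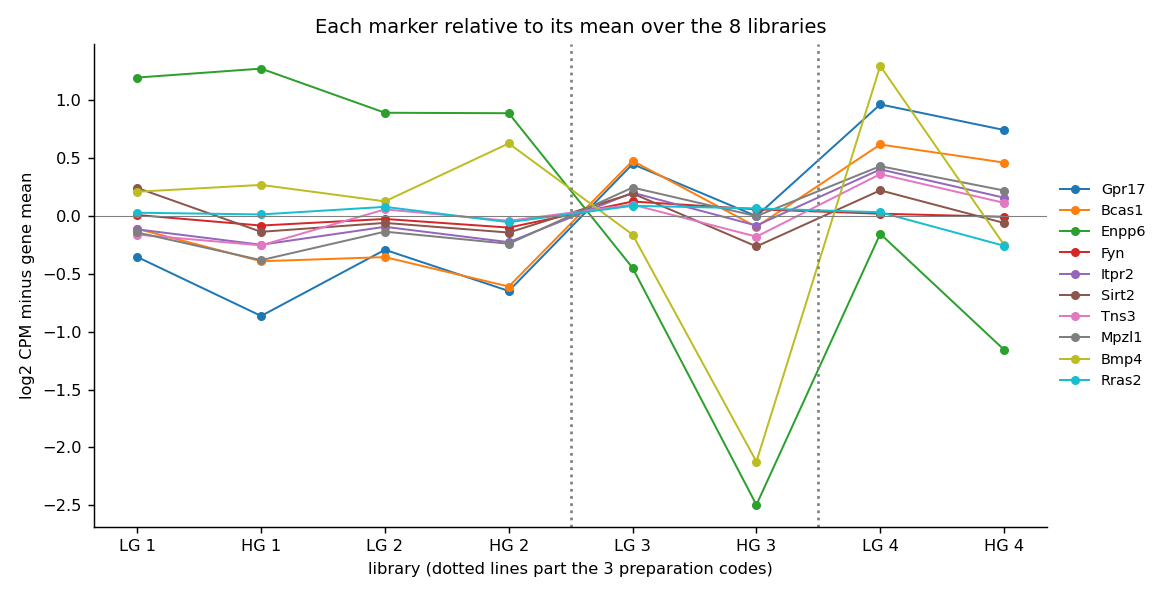
Log2 CPM of each marker minus its mean over the 8 libraries, with the libraries in pairs by number and dotted lines between preparation codes. Gpr17, Bcas1, Mpzl1 and Itpr2 are lowest in numbers 1 and 2 and highest in number 4, and Enpp6 is highest in numbers 1 and 2 and lowest in HG 3.

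Most other genes known from the same stage, a list also chosen with earlier results of these data known, were above 0 as well. Of 22 such markers 21 were tested, and 16 had a blocked log2 fold change above 0, against 50.4% of all genes. The median was 0.18. In 14 the LG library was the higher one of each of the 4 pairs, as in 10.8% of all genes. Below 0 were Cemip2 (-0.22), Frmd4a (-0.12), Arpc1b (-0.15), Ctps (-0.092) and 9630013A20Rik (-0.064). Cemip2 and Frmd4a were lower in LG in every pair. With the block 1 of the 21 passed upward and none downward, against 0.111% and 0.307% of all genes. That gene, Neu4, a sialidase, stood at 11.1, 14.1, 17.6 and 29.1 CPM in LG and 6.13, 8.14, 11.3 and 17.1 CPM in HG. LG was higher in every pair, and Neu4 rose by a log2 fold change of 0.76 with an SE of 0.078 (edgeR adjusted p = 0.00576 with the block). Lims2, a partner of integrin-linked kinase that overlaps Gpr17 on the other strand by 3.62% of the exon bases of Gpr17, averaged 86.5 ± 23.4 CPM in LG and 68.9 ± 25.3 CPM in HG (blocked edgeR adjusted p = 0.0608). With GC and length offsets 3 of the list passed upward, Neu4, Lims2 (edgeR adjusted p = 0.0470) and Mycl, a Myc-family transcription factor (0.0404, against 0.0523 with the block alone).

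In the lists for the stages before and after, few genes passed, as in those of the stage itself. Over all genes, 0.418% were called with the block (0.111% higher in LG) and 0.799% with the offsets as well (0.27% higher). Of 14 progenitor markers, all tested, 8 were above 0 with a median of 0.023, and none was called with the block. Once the offsets were added 1 passed, C1ql1, a secreted C1q-like protein, which had 65.4, 64.8, 71.0 and 72.9 CPM in LG and 39.1, 50.8, 59.7 and 57.9 CPM in HG. Its groups did not overlap, LG was higher in every pair, and its edgeR adjusted p was 0.0523 with the block and 0.0189 with the offsets. Ptprz1, a receptor phosphatase, averaged 2353 ± 259 CPM in LG and 2641 ± 275 CPM in HG, and Olig1, a lineage transcription factor, 2497 ± 119 CPM in LG and 2430 ± 476 CPM in HG. Of 21 mature myelin genes 18 were tested, 7 were above 0 with a median of -0.10, and 1 passed upward. Fa2h, which makes the hydroxylated lipids of myelin, averaged 26.7 ± 8.59 CPM in LG and 19.0 ± 7.31 CPM in HG and rose by 0.52 on the log2 scale with an SE of 0.076 (edgeR adjusted p = 0.0346 with the block). LG was higher than HG in all 4 pairs for Fa2h. Of the 12 astrocyte markers 9 were above 0, with a median of 0.14, and none was called. None of the neuron (9 tested), microglia (3), endothelial (3), fibroblast (4) or mural (6) markers was called either.

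**Figure D5:**
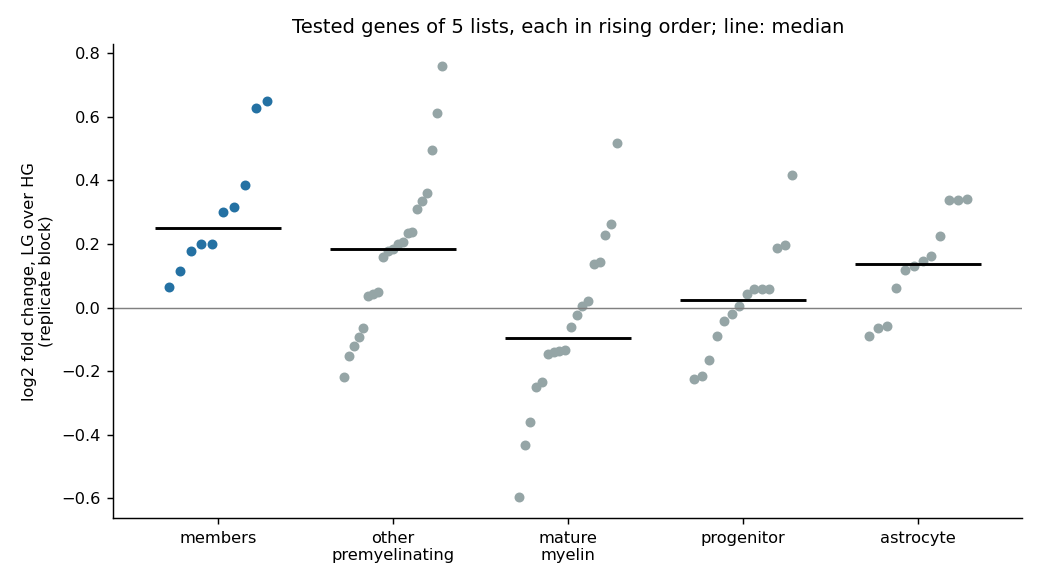
Blocked log2 fold change of LG over HG for the tested genes of 5 lists, each list in rising order with a line at its median. The 10 members all lie above 0, the other premyelinating markers have a median of 0.18, and the mature myelin genes spread to both sides of 0 with a median of -0.10.

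Close relatives of the markers did not share one direction. Of 37 paralogs 27 were tested, 14 of them above 0 with a median of 0.047, and 1 was called with the block. Bmp7, a ligand of the same family as Bmp4, had 44.5, 45.04, 63.0 and 65.1 CPM in LG and 58.3, 55.7, 85.1 and 81.4 CPM in HG. LG was lower in every pair, and Bmp7 fell by 0.36 on the log2 scale with an SE of 0.057 (edgeR adjusted p = 0.0346). Bmp2 was low in both groups, at 0.434 CPM in LG and 0.393 CPM in HG. Itpr1, the relative of Itpr2 best known from neurons, averaged 10.3 ± 1.04 CPM in LG and 12.3 ± 0.866 CPM in HG with a blocked log2 fold change of -0.25 (edgeR adjusted p = 0.212), and Itpr3 was at 0.329 CPM in LG and 0.267 CPM in HG. The Fyn relatives Src, Yes1 and Lyn had blocked log2 fold changes of 0.073, -0.15 and -0.049, with none called, and Enpp2 (autotaxin), the abundant relative of Enpp6, averaged 370 ± 86.4 CPM in LG and 334 ± 81.8 CPM in HG (edgeR adjusted p = 0.291). Sirt1 (log2 fold change -0.055), Tns1 (0.15) and Mras (0.15) were not called. The other tested paralogs, Bmp3, Enpp1, Enpp3, Enpp4, Enpp5, Lck, Mpzl3, P2ry12, P2ry14, Rras, Sirt3, Sirt4, Sirt5, Sirt6, Sirt7 and Tns2, had blocked log2 fold changes from -0.53 (P2ry12) to 0.31 (P2ry14), with none called.

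Among genes that work with the markers, only the BMP pathway held a call, with the block. Of its 24 receptors, Smads, targets and antagonists 22 were tested, 13 were above 0 with a median of 0.047, and 1 passed. Id3, an inhibitor of bHLH factors that BMP signalling induces, had 26.5, 28.7, 19.2 and 20.1 CPM in LG and 18.6, 22.5, 13.9 and 14.2 CPM in HG. It was higher in LG in every pair and rose by 0.46 on the log2 scale with an SE of 0.070 (edgeR adjusted p = 0.0346 with the block). Its relative Id4 had a blocked log2 fold change of 0.43 (edgeR adjusted p = 0.0561, and 0.0202 with GC and length offsets). Of 21 Fyn regulators and substrates 20 were tested, 13 were above 0 with a median of 0.039 and none was called, with Cntn1, the contactin that partners Fyn, at 1451 ± 243 CPM in LG and 1565 ± 221 CPM in HG and Hnrnpa2b1, which binds myelin RNA, at 733 ± 74.5 CPM in LG and 866 ± 79.2 CPM in HG. Of 18 calcium store genes 17 were tested, 10 were above 0 with a median of 0.025 and none was called. Calr, a calcium-binding chaperone, averaged 759 ± 45.4 CPM in LG and 693 ± 77.7 CPM in HG, and Atp2a2, the store's calcium pump, 329 ± 6.80 CPM in LG and 327 ± 13.6 CPM in HG.

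The mean of the 10 markers, each centred on its own log2 mean, gave scores of 0.08, 0.02, 0.13 and 0.42 in LG 1 to 4 and -0.08, -0.06, -0.50 and -0.0027 in HG 1 to 4. LG was above HG by 0.32 ± 0.25 log2 units over the 4 pairs, most in pair 3, where Enpp6 and Bmp4 of HG 3 are low. The genes outside the 10 whose log2 levels were most like that mean over the 8 libraries were Gm37584 (Pearson r = 0.97), Sertad1 (0.93), Gm48393 (0.92), Tpd52l1 (0.92) and Lhfpl2 (0.92). Their blocked log2 fold changes lay between 0.17 and 0.60, and none was called. These r values are the highest found in a search of all tested genes outside the 10. Gm48393 had only 8 to 26 counts per library and Gm37584 49 to 128.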

How the data were processed

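Gene counts were used as the authors deposited them, unscaled whole numbers for each Ensembl ID. The submitters' processing notes name CASAVA 1.8.2, STAR, featureCounts, DESeq2 and mm10 without giving their roles; the annotation release, strand setting and treatment of multi-mapping reads were not stated in the labels or the table's header. Symbols and exon lengths came from GENCODE M21 (GRCm38), which named 52125 of the 56980 IDs and left 4855 without a symbol.

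LG was compared with HG in R 4.3.3 with edgeR 4.0.16: filterByExpr, TMM scaling, robust quasi-likelihood test, Benjamini-Hochberg adjustment over 18905 genes and a threshold of 0.05. The SE is the absolute log2 fold change divided by the square root of F. Log2 CPM used a prior count of 2, and CPM per kb used the union of exons. GC and length trends per library, fitted with mgcv 1.9.3 for the 97.5% of genes with known values, entered as offsets. The preparation code (shared by numbers 1 and 2) was tested as a term beside the group, and its interaction with glucose was added after the data were seen. DESeq2 1.42.0, limma-voom 3.58.1, other scaling, no filter and left-out libraries were alternatives. The procedures were tested on simulated data.

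The replicate numbers were taken to pair the libraries. The preparation codes behind them are shared between LG and HG, and deviations from the group means correlated at r from 0.448 to 0.625 between libraries of the same number across genes, against at most 0.419 between different numbers.

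The markers and the gene lists were chosen with earlier results of these data known. All 10 markers were named, and of each other list the genes that passed with or without the block, or otherwise the 2 most abundant; also the tested paralogs beside a marker and the 5 genes most like the markers' mean. Pdgfra, Mog, C1ql1, Lims2, Mycl, Id4, Bcas1os1, the myelin genes other than Fa2h and S100b were named outside that rule, after their values were seen. So were Cemip2, Frmd4a, Arpc1b, Ctps and 9630013A20Rik. A gene that the rule picks is not reported here.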

Additional observations from a re-analysis of the deposited data

Results flagged for a closer look

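Among the 22 groups of 4 libraries examined for the 10 markers and their mean score, 2 had a library far from the other 3, where chance gives about 1 in 20, or 1.1. For Sirt2, LG 2 was the lowest LG library at 8.07 log2 CPM, with the other LG libraries between 8.32 and 8.37. For the mean score of the 10 markers, HG 3 was the lowest HG library at -0.50, with the other HG libraries between -0.08 and -0.0027.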

How the results depend on the processing

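All 10 markers kept a log2 fold change above 0 under 21 of 24 settings, and Enpp6 was the exception in the others, at -0.07 without LG 1, -0.12 without HG 3 and -0.03 without HG 4 (with single libraries left out, its highest value was 0.81). The median over the markers stayed between 0.11 and 0.31. In LG against HG, 0 genes passed without a block, against 79 with the replicate block, 151 with block and offsets, 1 with the preparation code as block, 17 with sums per preparation, 4 with DESeq2 and 474 with DESeq2 and the block. Leaving a pair out of the blocked fit gave 0 (pair 2 out), 6 (pair 1 out), 39 (pair 3 out) or 148 genes (pair 4 out). No marker passed without a block, 2 with block and offsets, 4 with DESeq2 and the block and 2 in the blocked fit without pair 4; the block changed no other call on a marker. Leaving out single libraries gave 0 genes without a block in LG against HG, and 1575 to 2162 genes that differed between preparations, against 2585 with all 8 libraries. The preparation test gave 4 to 7 markers over its settings. The test of glucose by preparation called 0 genes, and 18 genes with 1 marker among them without the filter. The cause of these changes was not tested. Log2 fold changes rose with GC content across 18424 genes (Spearman's rho = 0.36 with the block, 0.0031 with offsets as well), and genes are not independent. With 22 counts in HG 3, Bmp4 is the marker that depth limits most.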
